A study of Arabidopsis thaliana with 8 samples.

Results

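GID1A (AT3G05120), GID1B (AT3G63010) and GID1C (AT5G27320) encode the gibberellin receptors of Arabidopsis thaliana. Their transcripts were followed in wild-type seedlings and in seedlings labelled as mutants of light-signalling bZIP factors. The genes were chosen by name and with earlier results of these data known. The probe sets used are those that the array's annotation ties to 1 of these genes and to no other. Each receptor gene had 1 such probe set, 259302_at for GID1A, 251200_at for GID1B and 246782_at for GID1C. They are 3 of 22746 probe sets tested, of which 13513 had 1 gene in the annotation.

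Gibberellins are plant hormones that drive germination, stem growth and flowering. A GID1 receptor that has bound gibberellin binds a DELLA protein, a repressor of growth, and the F-box protein SLY1 then directs the DELLA protein to degradation. In Arabidopsis the 3 receptors overlap in function, and receptor transcripts are known to be kept higher by DELLA proteins and lower by gibberellin, as part of feedback in the pathway. HY5 and its homolog HYH promote light-dependent development, GBF1 is a bZIP factor that binds G-box elements, and gibberellin and light act on hypocotyl growth in opposite directions.

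Total RNA of whole seedlings was measured on 8 Affymetrix arrays, 2 for each of 4 genotypes, and the labels call each pair biological replicates. Besides wild type of ecotype Col-0 there were single mutants (gbf1) and 2 kinds of double mutant, gbf1 hy5 and gbf1 hyh, so that all mutant samples carry the gbf1 mutation. Every sample was 4 days old, from seed kept for 4 days at 4 °C and then in continuous white light (20 µmol/m2/s, 22 °C), on 0.8% agar with 1% sucrose. The labels give no allele and no number of seedlings per sample, and give an ecotype for wild type only. Differences in genetic background and differences due to a mutation therefore cannot be told apart. Nothing says how the replicates were grown, so p-values measure the spread between these samples.

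All values are RMA signals on the log2 scale, relative to the median of the same probe set over the 8 arrays. They show how a gene differed between arrays, and no receptor's level can be set against another's. Genotypes were compared with limma over all probe sets. A difference counts as called where its Benjamini-Hochberg adjusted p was under 0.05.

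The arrays differed in ways the genotypes do not define. The mean log2 signal of the bio and cre hybridisation controls stood out on the second gbf1 array (1.79) and the second gbf1 hyh array (1.499), against -0.522 to 0.268 on the other arrays. Of the mutated genes, HYH (AT3G17609) could be read from its own probe set, and it lay at -2.03 and -1.78 on the gbf1 hyh arrays. It lay at -1.01 and -0.85 in gbf1 hy5, at 1.08 and 0.85 in wild type and at 1.69 and 1.94 in gbf1, so both double mutants had low HYH signal. For GBF1 and HY5 the annotation used here ties no probe set to the gene alone, so these mutations were not checked.

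GID1A varied most among the receptor genes: it was lowest in gbf1 and highest in gbf1 hyh. Its log2 signal was -0.25 and -0.03 on the wild-type arrays. It was -1.01 and -0.45 in gbf1, the pair that lay furthest apart of the 4 genotypes. It was 0.03 and 0.32 in gbf1 hy5 and 0.41 and 0.44 in gbf1 hyh. The arrays of no genotype overlapped those of another. In single comparisons, from 8364 (gbf1 against wild type) to 10573 (gbf1 hy5 against wild type) of all 22746 probe sets had no overlap. The share with all 4 genotypes apart was not counted, so how unusual this is for GID1A is not known. The order from low to high was gbf1, wild type, gbf1 hy5 and gbf1 hyh. The nearest arrays of neighbouring genotypes in that order were 0.197, 0.0531 and 0.0968 apart, each less than the distance of 0.291 between the gbf1 hy5 replicates. Its whole range of 1.45 was at or above that of 95.3% of all probe sets.

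**Figure D1:**
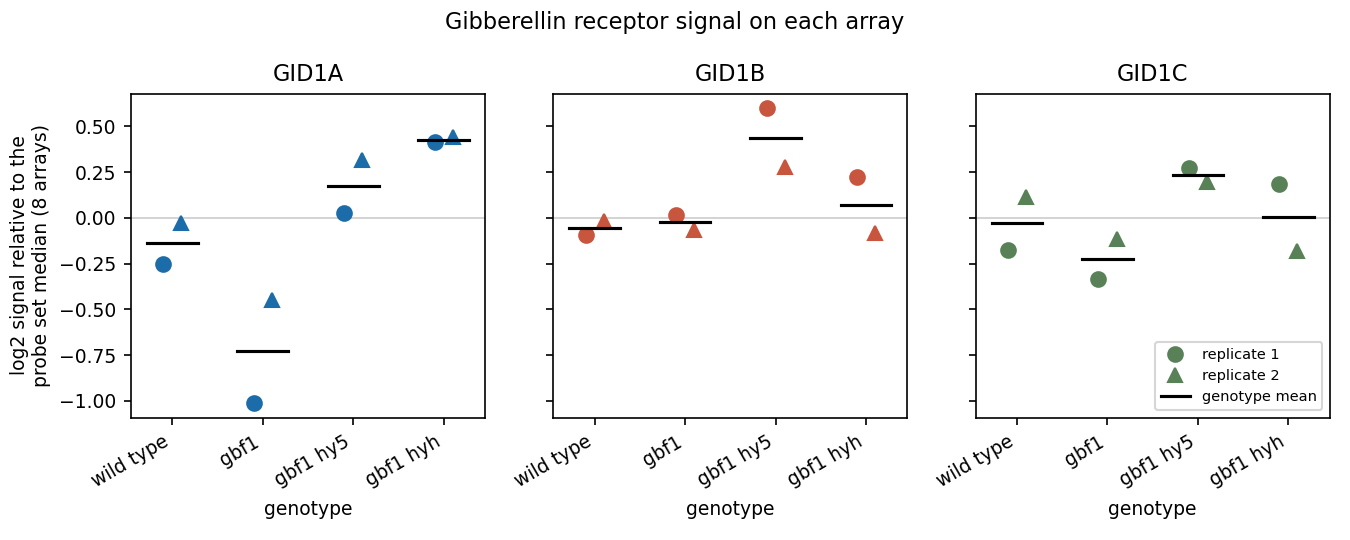
Log2 signal of GID1A, GID1B and GID1C relative to the median of each probe set (vertical axis) in the 4 genotypes (horizontal axis), with 1 point per array (circles for replicate 1, triangles for replicate 2) and a line at the mean of each genotype. GID1A spans -1.01 to 0.44 with gbf1 lowest, while GID1B and GID1C stay between -0.33 and 0.60 and are highest in gbf1 hy5.

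GID1A rose in both double mutants relative to gbf1. In gbf1 hy5 it was higher by 0.90 (SE 0.204, 95% confidence interval 0.44 to 1.36, n = 2 arrays per genotype), which is 1.87-fold, with an adjusted p of 0.0416 in limma. In gbf1 hyh it was higher by 1.16 (SE 0.204, 95% confidence interval 0.70 to 1.62), which is 2.23-fold, with an adjusted p of 0.0212 in limma. Of the receptor genes, 1 of 3 was called higher in each comparison, against 2.4% of all probe sets for gbf1 hy5 and 1.01% for gbf1 hyh. The receptor genes were chosen with earlier results of these data known, so these shares are given for scale only. Both comparisons use the same gbf1 arrays, so they are not independent of each other. Of all probe sets, 0.475% were called higher in both. These are 19.8% of those called higher in gbf1 hy5 and 47% of those called higher in gbf1 hyh.

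Both GID1A calls lie near the threshold. With 1 array left out in turn, the call in gbf1 hy5 against gbf1 held in 1 of 8 fits (difference 0.62 to 1.18). That in gbf1 hyh against gbf1 held in 3 of 8 (difference 0.88 to 1.44). These include the fits without a gbf1 hy5 array, in which all gbf1 and gbf1 hyh arrays stay. Among fits that drop a compared array, each call held only without gbf1 replicate 2. The differences kept their sign with any 1 array left out, which was fixed beforehand because the arrays of the compared genotypes did not overlap. Gbf1 replicate 1 held the lowest GID1A value, and without it the differences were 0.62 (adjusted p = 0.101) and 0.88 (adjusted p = 0.0544). Without both arrays of high control signal they were 1.18 and 1.42. That fit left 1 array in gbf1 and 1 in gbf1 hyh, and the gbf1 array was replicate 1, with the lowest GID1A value.

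**Figure D2:**
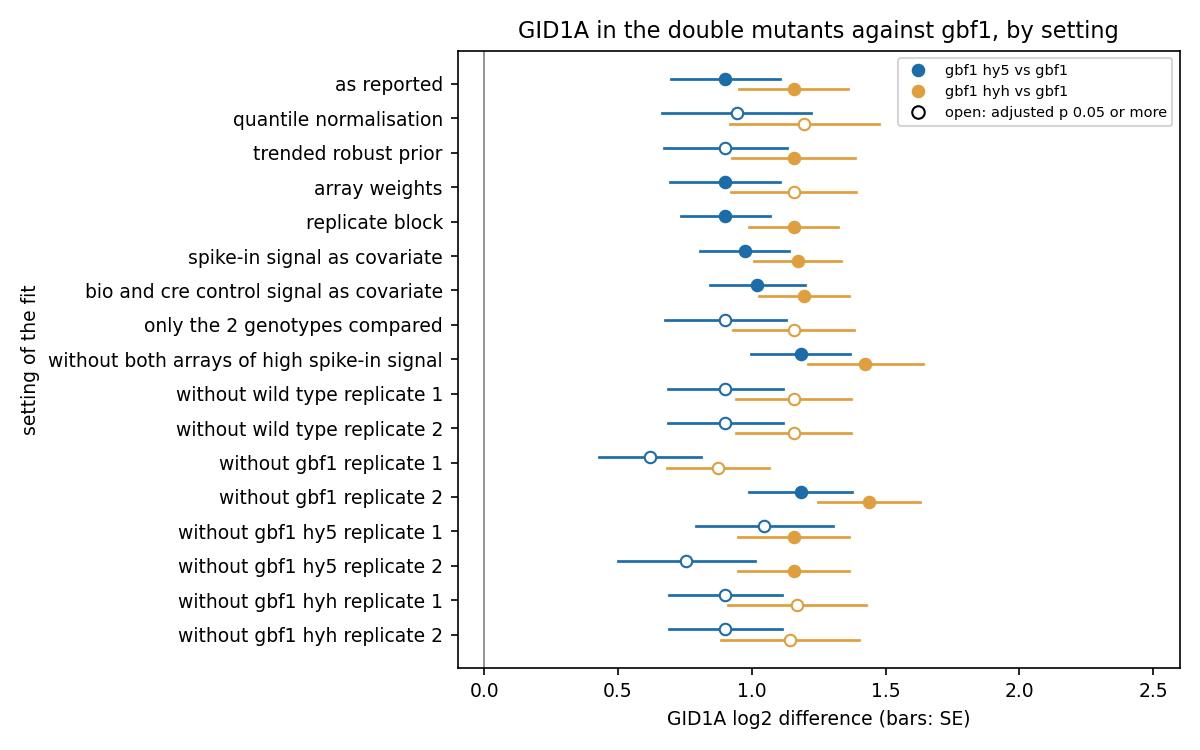
GID1A log2 difference (horizontal axis, bars give the SE) of gbf1 hy5 (blue) and gbf1 hyh (orange) from gbf1 under each setting of the fit (vertical axis), with filled points where the adjusted p was under 0.05. All points lie between 0.62 and 1.44, and the call is lost in 10 of the 16 alternatives for gbf1 hy5 and in 8 of the 16 for gbf1 hyh.

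Against wild type no GID1A difference was called. GID1A was at -0.59 in gbf1 (SE 0.204, 95% confidence interval -1.05 to -0.13, adjusted p = 0.41), and both gbf1 arrays lay below both wild-type arrays, as in 18% of all probe sets. That difference was -0.31 (adjusted p = 0.471) without gbf1 replicate 1 and -0.87 (adjusted p = 0.209) without gbf1 replicate 2. In gbf1 hyh the difference was 0.57 (95% confidence interval 0.11 to 1.03, adjusted p = 0.344), and in gbf1 hy5 it was 0.31 (95% confidence interval -0.15 to 0.77, adjusted p = 0.676). In these 3 comparisons 0 of 3 receptor genes were called, against 0.418%, 2.18% and 1.28% of all probe sets in gbf1, gbf1 hy5 and gbf1 hyh. At an unadjusted p under 0.05 there was 1 receptor gene in each, GID1A in gbf1 and in gbf1 hyh and GID1B in gbf1 hy5, where 8.74%, 10.3% and 12.3% of all probe sets passed in that order. At the SE of GID1A, a difference of 1.22 in gbf1 or of 1.04 in gbf1 hyh would have been needed for a call.

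GID1B was highest in gbf1 hy5 and close to 0 elsewhere. Its log2 signal was 0.60 and 0.28 on the gbf1 hy5 arrays. It was -0.10 and -0.02 in wild type, 0.02 and -0.07 in gbf1, and 0.22 and -0.08 in gbf1 hyh. Both gbf1 hy5 arrays lay above the other 6 arrays, and the arrays of those other genotypes overlapped. In single comparisons both gbf1 hy5 arrays lay above both wild-type arrays for 26.8% of all probe sets and above both gbf1 arrays for 25.2%. The share above all 6 was not counted. GID1B is the receptor gene that stands apart from its paralogs in Arabidopsis for its high affinity for gibberellin and its basal binding of DELLA proteins.

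No GID1B difference passed the limma test. Gbf1 hy5 was 0.50 above wild type (SE 0.168, 95% confidence interval 0.11 to 0.88, adjusted p = 0.231) and 0.46 above gbf1 (95% confidence interval 0.08 to 0.84, adjusted p = 0.186). Against gbf1 hyh it was 0.37 higher (95% confidence interval -0.01 to 0.75, adjusted p = 0.373). Gbf1 hyh differed from wild type by 0.13 (95% confidence interval -0.25 to 0.51) and from gbf1 by 0.10 (95% confidence interval -0.28 to 0.48), and gbf1 from wild type by 0.03 (95% confidence interval -0.35 to 0.41). At the SE of GID1B, differences of 0.79 from wild type and of 0.71 from gbf1 would have been needed for a call in gbf1 hy5.

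GID1C followed GID1B in having its highest mean in gbf1 hy5, and GID1A in having its lowest in gbf1. Its log2 signal was 0.27 and 0.20 in gbf1 hy5 and -0.33 and -0.12 in gbf1. It was -0.17 and 0.12 in wild type, and 0.19 and -0.18 in gbf1 hyh, so the replicates of these genotypes lay on either side of the median. The gbf1 hy5 arrays lay above all others, by 0.0117 from the nearest gbf1 hyh array, and the neighbouring genotypes below it overlapped. How many of all probe sets had gbf1 hy5 above all others was not counted.

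No GID1C difference was called either. Gbf1 hy5 was 0.46 above gbf1 (SE 0.178, 95% confidence interval 0.06 to 0.86, adjusted p = 0.219) and 0.26 above wild type (95% confidence interval -0.14 to 0.66, adjusted p = 0.69). The other differences were -0.19 for gbf1 from wild type, 0.03 for gbf1 hyh from wild type, 0.23 for gbf1 hyh from gbf1 and 0.23 for gbf1 hy5 from gbf1 hyh, with adjusted p from 0.641 to 0.974.

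**Figure D3:**
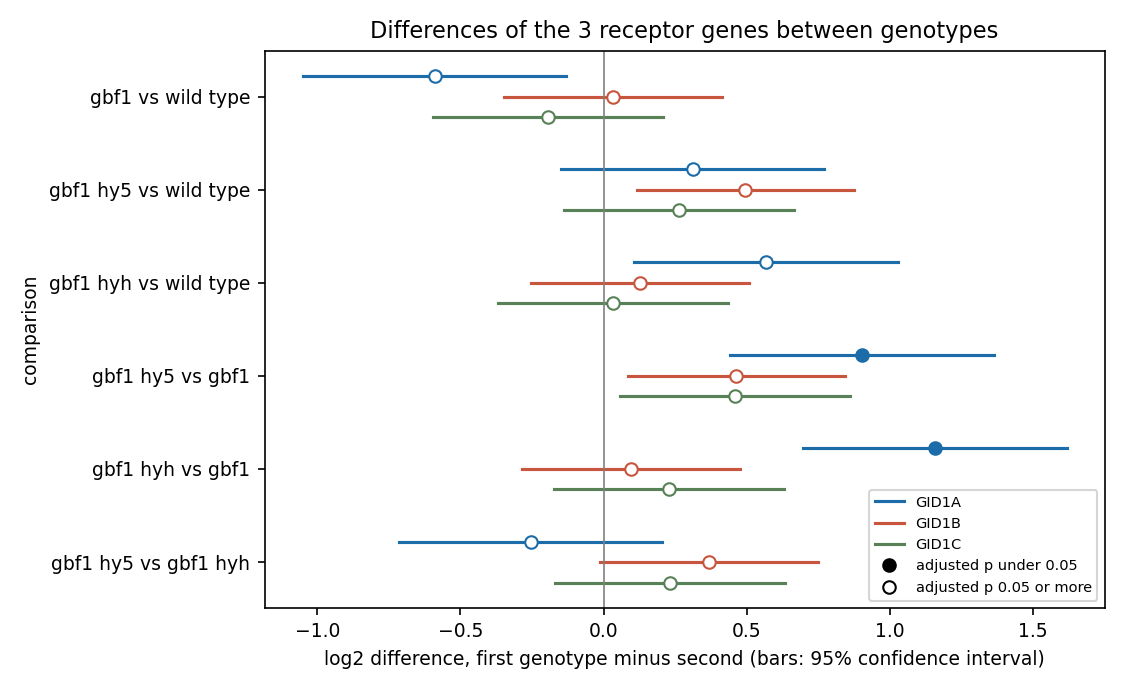
Log2 differences between genotype means (horizontal axis, first genotype minus second, bars give the 95% confidence interval) of GID1A, GID1B and GID1C in the 6 comparisons (vertical axis), with filled points where the adjusted p was under 0.05. GID1A at 0.90 and 1.16 against gbf1 holds the filled points, and its interval against wild type lies below 0 in gbf1 and above 0 in gbf1 hyh without a call.

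In gbf1 hy5 against gbf1, both arrays of the double mutant lay above both of gbf1 for 3 of 3 receptor genes, where 25.2% of all probe sets did so. The median difference of the receptor genes was 0.46, beside 0.01 over all probe sets. The same held for 3 of 3 in gbf1 hy5 against wild type, beside 26.8% of all probe sets, with a median of 0.31 beside 0.02. In gbf1 hyh it held for GID1A alone, 1 of 3 against gbf1 (21.1% of all probe sets) and 1 of 3 against wild type (23%), with medians of 0.23 and 0.13 beside 0.02 and 0.03. The gbf1 hy5 arrays are shared by the first pair of comparisons, and the gbf1 hyh arrays by the second.

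Between the double mutants no receptor gene was called, where 2.77% of all probe sets were. GID1A lay 0.25 lower in gbf1 hy5 than in gbf1 hyh (95% confidence interval -0.72 to 0.21, adjusted p = 0.67), and GID1B and GID1C lay 0.37 and 0.23 higher. For each of the 3 genes the arrays of the double mutants did not overlap, as for 44.1% of all probe sets.

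Whether the receptor genes moved alike was examined within arrays. GID1A minus GID1C was -0.51 ± 0.244 (SD, n = 2) in gbf1, -0.11 ± 0.0452 in wild type, -0.06 ± 0.257 in gbf1 hy5 and 0.42 ± 0.276 in gbf1 hyh. GID1A minus GID1B was -0.70 ± 0.458 in gbf1, -0.08 ± 0.105 in wild type, -0.27 ± 0.432 in gbf1 hy5 and 0.36 ± 0.235 in gbf1 hyh. GID1B minus GID1C stayed between -0.03 and 0.20 in genotype mean. A single test of each value over the 4 genotypes was an exact permutation test of the F statistic over the 105 ways to split 8 arrays into 4 pairs.

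In that exact test GID1A gave p = 0.00952, the smallest the 105 splits can give, GID1B gave p = 0.114 and GID1C gave p = 0.2. The GID1A value follows from the arrays of no genotype overlapping for this gene, so it adds nothing to that observation. For the differences within arrays, exact p was 0.0286 for GID1A minus GID1C, 0.162 for GID1A minus GID1B and 0.524 for GID1B minus GID1C. After Benjamini-Hochberg adjustment over the 6 exact tests GID1A was at 0.0571 and GID1A minus GID1C at 0.0858. With 105 splits and 6 tests, 0.0571 is the lowest adjusted value that 1 test alone at the smallest p can reach, so these adjusted values do not show that the receptor genes moved alike.

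By the root-mean-square difference between mean-centred values over the 8 arrays, the genes most like GID1A among 13512 others were AT4G01130 (0.167), TUA6 (0.181), an alpha-tubulin gene, and AT2G45340 (0.185). AT4G01130 lay at -0.78 and -0.18 in gbf1 and at 0.70 and 0.60 in gbf1 hyh. TUA6 lay at -0.69 and -0.46 in gbf1 and at 0.11 and 0.25 in gbf1 hyh. The median difference from GID1A over all genes compared was 0.487.

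Nearest to GID1B were AT5G42740 (0.0701), AT5G42050 (0.0769) and AT-HF (AT4G26900, 0.0808), and nearest to GID1C were AT2G42910 (0.0716), AT3G53560 (0.0796) and AT4G16060 (0.0798). By the same measure GID1B and GID1C differed by 0.148, which placed GID1C at 170 of 13512 for GID1B and GID1B at 194 for GID1C. GID1A differed by 0.366 from GID1C and by 0.45 from GID1B, which placed GID1C at 640 and GID1B at 3967 for GID1A. In the other direction GID1A was at 11249 for GID1C and at 12493 for GID1B. This measure favours genes of small variation for GID1B and GID1C. Their own values lay 0.228 and 0.208 from their mean by the same measure, beside 0.463 for GID1A.

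Of 57 further genes listed for the pathway, 12 had a probe set of their own in the annotation. None of the listed enzymes of gibberellin synthesis or inactivation, DELLA genes and DELLA partner genes is among the 12, and they were not analysed here. The 12 hold 4 genes of DELLA turnover and modification, 6 loci that the annotation names only by locus, and the response genes XERICO and EXPA8.

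SPY, which encodes an O-fucosyltransferase that modifies DELLA proteins, had its lowest mean in gbf1 and its highest in gbf1 hyh, as GID1A did, but no SPY difference was called. Its log2 signal was -0.32 and -0.16 in wild type and -0.30 and -0.98 in gbf1. It was 0.23 and 0.16 in gbf1 hy5 and 0.24 and 0.33 in gbf1 hyh, so the double mutants lay above the other arrays. In single comparisons of a double mutant with wild type or gbf1, 21.1% to 26.8% of all probe sets lay higher without overlap. The joint share was not counted. SPY was 0.84 higher in gbf1 hy5 than in gbf1 (SE 0.210, adjusted p = 0.0593) and 0.93 higher in gbf1 hyh than in gbf1 (adjusted p = 0.0585), and each difference passed in 4 of 16 alternative fits. Over those fits the SPY difference ranged from 0.50 to 1.18 in gbf1 hy5 and from 0.55 to 1.27 in gbf1 hyh. Gbf1 replicate 2, one of the arrays of high control signal, held the lowest SPY value, whereas the lowest GID1A value was on gbf1 replicate 1.

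SLY1, the F-box gene for DELLA degradation, lay at 0.02 and -0.54 in gbf1 and between -0.08 and 0.31 on the other arrays. SNE, its homolog, lay between -0.17 and 0.19 on all arrays. Over the 6 comparisons their differences ran from -0.34 to 0.38 for SLY1 and from 0.06 to 0.22 for SNE, and none was called. In gbf1 hy5 against gbf1 and in gbf1 hyh against gbf1, 4 of 4 genes of DELLA turnover and modification had values above 0 (medians 0.33 and 0.35) and 0 were called, beside 52.1% and 53.6% of all probe sets above 0. Both comparisons share the gbf1 arrays. The signs did not hold in every one of the 16 alternative fits: SLY1 fell to -0.0097 in the first comparison and SNE to -0.0038 in the second.

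AT1G22690 was the further listed gene that changed, and it changed in gbf1 hy5. Its log2 signal was -1.19 and -1.46 in gbf1 hy5, against -0.10 and -0.06 in wild type, 0.16 and 0.06 in gbf1, and 0.16 and 0.45 in gbf1 hyh. It fell by 1.25 relative to wild type (SE 0.161, adjusted p = 0.00511 in limma), by 1.44 relative to gbf1 (adjusted p = 0.00159) and by 1.63 relative to gbf1 hyh (adjusted p = 0.00096). The direction was opposite to that of the receptor differences in gbf1 hy5 from wild type and from gbf1. The call against wild type held in 12 of 16 alternative fits (adjusted p up to 0.0812), and the other two held in 16 of 16.

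Of the 12 further genes, 1 was called lower and 0 higher in gbf1 hy5 against wild type (1.11% and 1.06% of all probe sets) and against gbf1 (2.05% and 2.4%), and likewise against gbf1 hyh (1.02% and 1.76%). In the other 3 comparisons 0 of 12 were called, gbf1 hyh against gbf1 included, where 2.51% of all probe sets were. XERICO, a gibberellin-responsive RING-finger gene, differed from wild type by -0.31 in gbf1, -0.19 in gbf1 hy5 and -0.16 in gbf1 hyh, and the expansin gene EXPA8 by -0.16, -0.24 and 0.05. The medians of the 12 were -0.14, -0.07 and 0.10 in gbf1, gbf1 hy5 and gbf1 hyh against wild type.

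**Figure D4:**
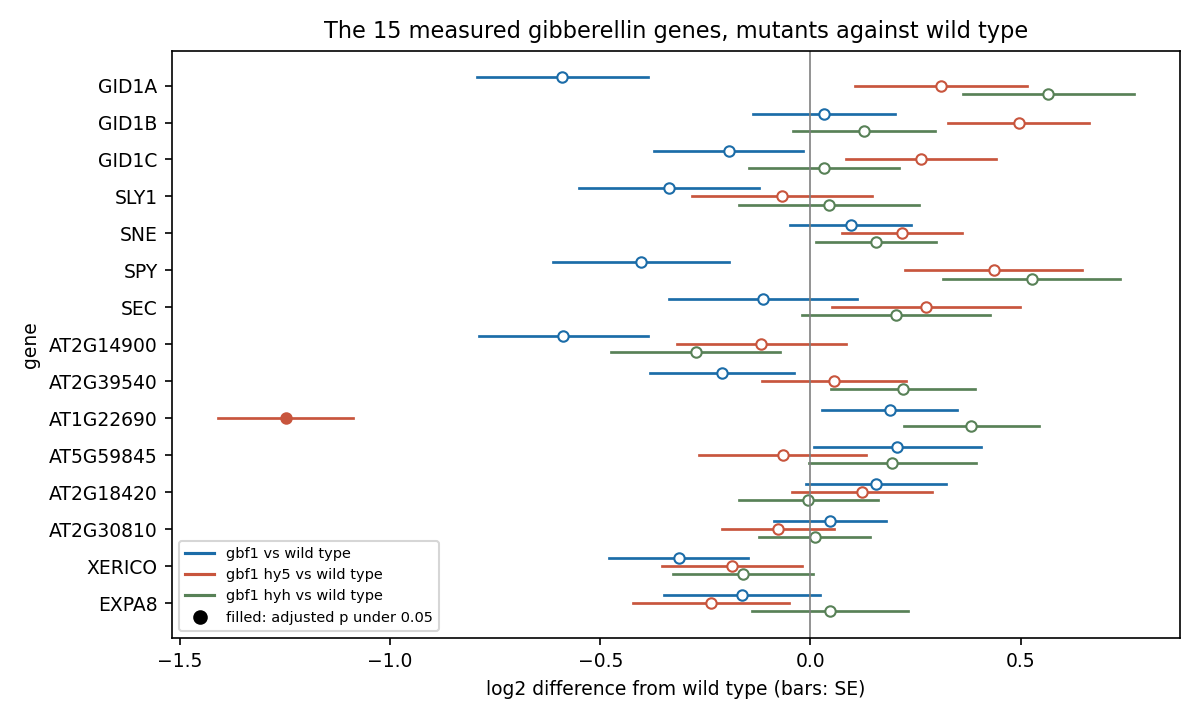
Log2 differences from wild type (horizontal axis, bars give the SE) of the 15 measured genes of the gibberellin lists (vertical axis) in gbf1 (blue), gbf1 hy5 (red) and gbf1 hyh (green), with filled points where the adjusted p was under 0.05. AT1G22690 at -1.25 in gbf1 hy5 is the filled point, and the receptor genes lie between -0.59 and 0.57.

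Whole seedlings hold many cell types, and in bulk RNA fewer cells of a type and less RNA per cell cannot be told apart. Of 4 root hair markers listed, 2 were measured, and both were highest in gbf1, where GID1A was lowest. EXPA18 lay at 1.37 and 1.41 in gbf1, at -0.50 and -0.68 in wild type, at -0.30 and -0.34 in gbf1 hy5 and at 0.30 and 0.66 in gbf1 hyh. It was called higher than in wild type in gbf1 (1.98, adjusted p = 0.00173 in limma). The same held in gbf1 hyh (1.08, adjusted p = 0.0146 in limma), where GID1A was highest. Of all 22746 probe sets, 51 and 83 were called higher in these comparisons. EXPA7 lay at 0.76 and 1.38 in gbf1 and between -0.33 and 0.18 on the other arrays. Its difference from wild type in gbf1 was 1.18, without a call (adjusted p = 0.0933 in limma). Of 7 markers of photosynthetic tissue, 3 were measured, and 1 of them was called lower in gbf1 hy5 than in wild type, beside 1.11% of all probe sets. GID1B and GID1C were highest in gbf1 hy5, without a call. LHCB4.2 lay at -1.61 and -1.69 in gbf1 hy5 and between -0.31 and 0.81 elsewhere, and it was called lower than in wild type (-1.89, adjusted p = 0.00113 in limma). LHCB4.1 lay at -0.25 and -0.28 in gbf1 hy5 and differed from wild type by -0.38 (adjusted p = 0.271). LHCB4.3 lay at -0.26 and -0.07 and differed from wild type in the other direction, by 0.22 (adjusted p = 0.751). The part of root or leaf tissue in the receptor values was not tested. Because the values are relative to each probe set's median, no marker can be called absent, and 0 of 11 seed markers were measured.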

How the data were processed

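Expression was measured on 8 one-colour Affymetrix arrays. The authors' deposited values are RMA signals made in GeneSpring, per the series design text, and were taken as log2. No source used here gives the log base, which follows RMA's usual output. In the deposited log2 table each probe set's median over the 8 arrays was 0 within 1e-06, so there were no levels on which to filter. The 64 AFFX controls were left out.

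All 8 arrays were fitted as 4 genotype means with limma 3.58.1 (R 4.3.3: lmFit, contrasts.fit, eBayes; 4 residual and 5.124 prior degrees of freedom), without a replicate block, with Benjamini-Hochberg adjustment of p over 22746 probe sets. The script was tested on simulated data. Of 6 comparisons, 5 come from the design text, and that between the double mutants is an addition. Genes were matched through the platform annotation and a TAIR10.1 gene table, used for names and gene order only. The annotation ties 503 tested probe sets to several genes and 8730 to none.

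Named were the receptor genes, HYH, called genes of the gibberellin lists, measured DELLA, oxidase, SLY1, SNE, SPY and SCL3 genes, and the 3 genes most like each receptor gene. The other measured genes and the markers were named after their values were seen. Members and lists were chosen with earlier results of these data known, and the exact permutation test was added later. Alternatives were quantile normalisation, a trended robust prior, array weights, the mean spike-in control signal as covariate, the compared genotypes alone, a replicate block, each array left out, and both arrays of high control signal left out. The mean of the bio and cre controls alone as covariate was added after seeing the data. The number of arrays limits the precision.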

Additional observations from a re-analysis of the deposited data

Results flagged for a closer look

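AT1G22690 responded differently to the mutations added to gbf1. Its effect of hy5 minus its effect of hyh was -1.63 (SE 0.161, adjusted p = 0.00096 in limma), with a difference from gbf1 of -1.44 in gbf1 hy5 and of 0.19 in gbf1 hyh. Both gbf1 hy5 arrays lay below both gbf1 hyh arrays. No receptor gene passed the same test.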

How the results depend on the processing

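No receptor difference that missed the threshold was called in any of the 16 alternative fits. The GID1A calls held in 6 (gbf1 hy5 against gbf1) and 8 (gbf1 hyh against gbf1) of the 16. Their sign was the same in all 16, but leaving out arrays could not turn it, because the arrays of the compared genotypes did not overlap. The trended robust prior, array weights, the replicate block and the compared genotypes alone left the differences themselves unchanged. Quantile normalisation gave 0.94 (adjusted p = 0.107) and 1.20 (adjusted p = 0.0662), and the compared genotypes alone gave 0.90 (adjusted p = 0.113) and 1.16 (adjusted p = 0.156). The trended robust prior ended the first call (0.90, adjusted p = 0.059), and array weights ended the second (1.16, adjusted p = 0.0501). In the fits without a wild-type array the differences did not move, and the adjusted p was 0.0796 and 0.0509, with fewer arrays behind the shared spread. The spike-in covariate gave 0.97 (adjusted p = 0.00784) and 1.17 (adjusted p = 0.00365), and the bio and cre covariate, chosen after seeing the data, gave 1.02 (adjusted p = 0.00915) and 1.19 (adjusted p = 0.00376). The range with 1 array left out was 0.62 to 1.18 and 0.88 to 1.44.

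Small differences changed sign with 1 array left out. The ranges were -0.0113 to 0.0746 for GID1B in gbf1 against wild type, -0.0261 to 0.281 for GID1B and -0.15 to 0.215 for GID1C in gbf1 hyh against wild type, and -0.0577 to 0.249 for GID1B in gbf1 hyh against gbf1.

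The count of called gibberellin genes in gbf1 hy5 against wild type was 1, and 0 with the trended robust prior and 0 to 1 with an array left out. In gbf1 hy5 against gbf1 it was 2, and 1 with that prior or with the compared genotypes alone, 3 (GID1A, SPY and AT1G22690) with array weights or the spike-in covariate, and 1 to 2 with an array left out. In gbf1 hyh against gbf1 it was 1, and 0 with array weights or with the compared genotypes alone, 2 (GID1A and SPY) with either control signal as covariate, and 0 to 1 with an array left out.

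With the replicate block the GID1A differences were 0.90 (adjusted p = 0.0173) and 1.16 (adjusted p = 0.00871), and no receptor call changed. Deviations of same-numbered arrays correlated at 0.336 between gbf1 and gbf1 hyh, the genotypes whose second arrays had high control signal. Over the other pairs of genotypes they correlated between -0.113 and 0.0917, so the numbers were not taken to pair the samples. The block moved the calls over all probe sets from 1012 to 1224 in gbf1 hy5 against gbf1 and from 571 to 654 in gbf1 hyh against gbf1.

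Over all probe sets the share called ranged over the alternatives from 0.0396% to 0.906% in gbf1, 0.387% to 5.8% in gbf1 hy5 and 0.299% to 2.33% in gbf1 hyh against wild type. Against gbf1 it ranged from 1.06% to 7.43% in gbf1 hy5 and from 0.396% to 5.24% in gbf1 hyh, and between the double mutants from 0.712% to 4.85%. In the fit as reported, with 2 arrays per genotype, receptor differences under about 0.71 were too small to be called in any comparison.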

Other observations

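Of the 5 protein-coding genes on either side of each receptor gene in the reference gene order, 6 of 10 near GID1A, 5 of 10 near GID1B and 6 of 10 near GID1C had a probe set of their own. This look at neighbours was chosen with earlier results known. Near GID1A, AT3G05150, 3 genes away, was called in the 4 comparisons of a double mutant with wild type or gbf1, and the other measured neighbours of the receptor genes were called in none of the 6. Of all probe sets, 2.18% and 1.28% were called in gbf1 hy5 and gbf1 hyh against wild type, and 4.45% and 2.51% against gbf1. Its log2 signal was 1.37 and 1.27 in gbf1 hy5 and 1.63 and 1.79 in gbf1 hyh. It was -1.36 and -1.36 in wild type and -1.51 and -1.27 in gbf1. It was 2.72 higher in gbf1 hy5 than in gbf1 (SE 0.148, adjusted p = 3.84e-05 in limma) and 3.10 higher in gbf1 hyh than in gbf1 (adjusted p = 1.33e-05). AT3G05130, the next gene beyond GID1A on that side, differed by 0.02 and 0.17 in the same comparisons, and AT3G05110, the next gene on the other side, by 0.06 and 0.14. Gbf1 differed from wild type by -0.03 in AT3G05150 and by -0.59 in GID1A.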
